A study of Mus musculus with 2 samples.

Results

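Nascent transcription of the Toll-like receptors and their closest partners was compared between untreated and IL-4-treated bone marrow-derived macrophages (BMDMs). The set held 10 genes: the receptors Tlr1, Tlr2, Tlr4, Tlr6, Tlr7, Tlr8 and Tlr9, the coreceptor Cd14, the adaptor Myd88 and the kinase Irak2. Its members were chosen by gene name, as every called transcript that the deposited annotation assigns to one of these names, and they are 10 of the 11054 gene names in both transcript files together. A member's name was carried by 44 of 43122 transcripts in the control library and by 37 of 51365 transcripts in the IL-4 library.

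The measurement was global run-on sequencing (GRO-seq), in which polymerases already engaged on DNA extend their RNA in isolated nuclei with a labelled nucleotide, so that RNA in the making is sequenced rather than the stored mRNA. BMDMs from wild-type mice on a C57BL/6 background, 8 to 12 weeks old, were differentiated over 6 days with L929 fibroblast supernatant, a source of the macrophage growth factor M-CSF. The control group had no cytokine added and the other group received 20 ng/ml IL-4 for 1 hr, both carrying no engineered allele that the labels name. Duplicate run-on reactions of each group were pooled before library preparation, so there was 1 library per group, no replicate and no test, and every difference below compares these libraries.

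Toll-like receptors recognise conserved microbial molecules and are among the main sensors of innate immunity in macrophages. TLR2 pairs with TLR1 or TLR6 at the cell surface to bind bacterial lipopeptides, and TLR4 binds lipopolysaccharide together with the coreceptor CD14. TLR7 and TLR8 recognise single-stranded RNA, and TLR9 recognises unmethylated CpG DNA, in endosomes. These receptors recruit MYD88, which assembles IRAK kinases including IRAK2 into a signalling complex that activates NF-kB. IL-4 acts through the transcription factor STAT6 and moves macrophages toward alternative polarization.

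The promoters of members described below are shown first, because the called transcripts are placed against their start sites. RefSeq promoter windows of the build GRCm38.p6 were read for 7 of the 10 members, as 9 windows of 300 bases. No window was found for Tlr4 and Tlr7, and Cd14 was left out of the search, so these genes are named only. The 250 bases that end just before the start site are printed 5′ to 3′ on the gene's strand, with motif matches in capitals: the NF-kB motif in Tlr2 (GGG and CC with 5 bases between), the PU.1 motif GAGGAAG in Tlr9, the TATA box TATAAA in Myd88, and the STAT6 motif (TTC and GAA with 4 bases between) and the TATA box in Tlr8. Both strands were searched, and overlapping matches were allowed. The printed Irak2 stretch held no match, but its window held an NF-kB match past the printed part, at bases 12 to 21 counted from the start site.
Tlr2, chr3:83841609-83841858, minus strand: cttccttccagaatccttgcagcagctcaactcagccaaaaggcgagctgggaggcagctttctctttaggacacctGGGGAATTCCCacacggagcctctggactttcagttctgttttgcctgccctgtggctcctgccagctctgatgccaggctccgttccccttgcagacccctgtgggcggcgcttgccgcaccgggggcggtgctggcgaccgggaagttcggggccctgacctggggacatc
Irak2, chr6:113638217-113638466, plus strand: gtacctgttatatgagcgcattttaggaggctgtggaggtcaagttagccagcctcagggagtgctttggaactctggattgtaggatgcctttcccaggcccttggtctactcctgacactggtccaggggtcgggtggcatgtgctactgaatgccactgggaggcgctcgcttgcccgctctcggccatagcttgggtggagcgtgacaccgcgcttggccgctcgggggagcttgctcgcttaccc
Tlr9, chr9:106222348-106222597, plus strand: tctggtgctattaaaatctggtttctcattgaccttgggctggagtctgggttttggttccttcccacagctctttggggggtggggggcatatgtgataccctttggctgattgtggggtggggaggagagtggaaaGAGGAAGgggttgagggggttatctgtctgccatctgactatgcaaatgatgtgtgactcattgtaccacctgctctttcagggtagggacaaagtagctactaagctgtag
Myd88, chr9:119340019-119340268, minus strand: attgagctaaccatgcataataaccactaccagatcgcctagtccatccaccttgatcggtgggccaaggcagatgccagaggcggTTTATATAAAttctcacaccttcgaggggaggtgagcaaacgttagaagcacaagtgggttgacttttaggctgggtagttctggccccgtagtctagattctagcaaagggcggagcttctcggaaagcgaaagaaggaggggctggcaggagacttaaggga
Tlr8, chrX:167264330-167264579, minus strand: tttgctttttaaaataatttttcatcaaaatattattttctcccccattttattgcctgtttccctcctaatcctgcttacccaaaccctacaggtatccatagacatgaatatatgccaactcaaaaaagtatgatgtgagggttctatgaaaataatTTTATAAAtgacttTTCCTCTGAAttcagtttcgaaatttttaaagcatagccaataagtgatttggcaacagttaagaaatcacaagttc

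Over the whole 300-base windows, the NF-kB motif was present in 3 of the 9 member promoters, those of Tlr2, Tlr6 and Irak2. It was present in 50.8% of 32851 promoters of the same length. The STAT6 motif was present in 1 of the 9, that of Tlr8, and in 6.95% of all promoters. The PU.1 motif was present in 2 of 9 and in 13.6% of all promoters, and the TATA box in 3 of 9 and in 13.6%. These matches describe the letters in the windows and are not binding sites that were measured.

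Each gene was read in each library as the highest score of any transcript carrying its name, called its value here. The score is the authors' per-transcript value, printed to 1 decimal with no stated scaling to library size, so log2 ratios of IL-4 over control were centred on the median gene, which shifted them by 0.38. A ratio was counted as lower or higher when it was at least 2-fold from that median, and its rounding range is the span allowed by the decimal of the score. This range covers rounding and not the spread between samples.

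Of the 10 genes, 9 had a value in both libraries, 1 had a value in the control only (Tlr1), and 4 were at least 2-fold lower after IL-4 (Tlr2, Tlr7, Irak2 and Tlr9). None was at least 2-fold higher. Among the 8879 genes with a value in both libraries, 8.62% were at least 2-fold lower and 8.06% at least 2-fold higher. For Tlr2, Tlr7 and Irak2 the whole rounding range lay past 2-fold, which held for 3.85% of genes in the lower direction. These 3 members had control values of at least 2, and 15.6% of the 686 genes with such values were at least 2-fold lower. The median centred log2 ratio of the 9 genes was −0.62, with 6 below and 3 above the median gene. That median is the ratio of Tlr6, whose values came from a segment on the opposite strand upstream of the gene.

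**Figure D1:**
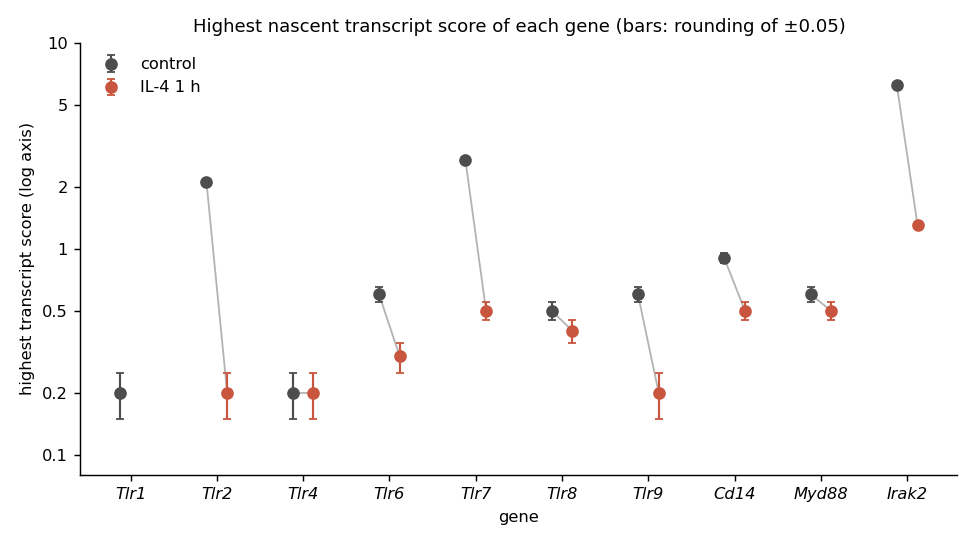
Highest score of each gene in the control and IL-4 libraries, on a log axis, with 1 library per group and bars for the rounding of the score. Tlr2, Tlr7 and Irak2 stand apart between the libraries, while the values of Tlr4, Tlr8 and Myd88 lie close together, and Tlr1 has a control point only.

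**Figure D2:**
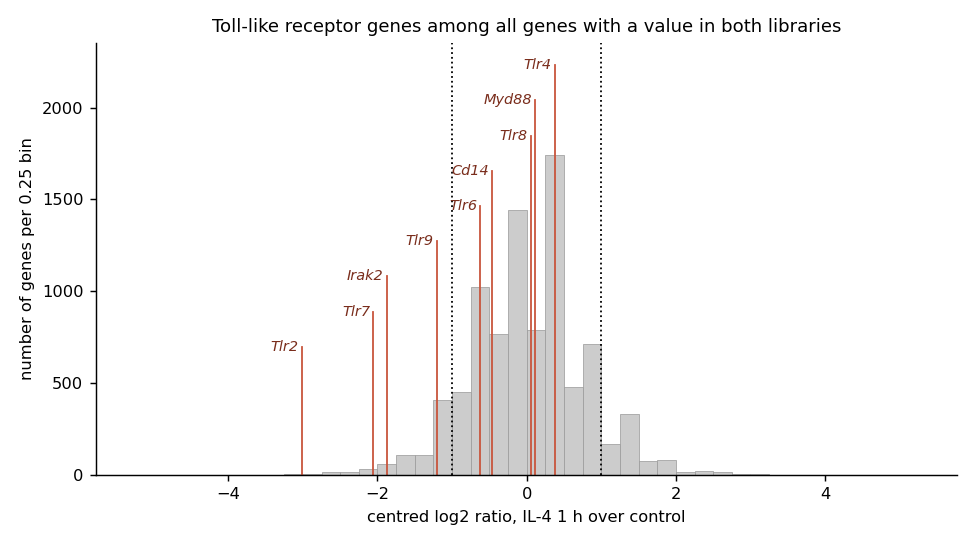
Centred log2 ratios of the 9 members with a value in both libraries, drawn against the histogram of all 8879 genes, with dotted lines at 2-fold. Tlr2, Tlr7, Irak2 and Tlr9 lie beyond the lower line and no member lies beyond the upper line.

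Among the surface receptors, Tlr2 had the largest difference of the set. Tlr2 (ENSMUSG00000027995.10, GRCm38 chromosome 3, 83836272 to 83841767, minus strand) reached 2.1 in the control and 0.2 after IL-4. The control library was the higher one and the centred log2 ratio was −3.01, with a rounding range of −3.46 to −2.66. The control value came from a 113-bp segment at 83840532 to 83840644, in intron 2 of the RefSeq transcript, which the annotation gives as a simple repeat. Without transcripts annotated as simple repeats or low complexity, the centred log2 ratio of Tlr2 was −1.49.

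Other control segments of Tlr2 had no counterpart after IL-4, while 62.6% of all control transcripts had one on the same strand. A 537-bp segment at 83841041 to 83841577, which began 31 bases after the RefSeq start site of the promoter printed above, had a score of 0.7 in the control, and no transcript overlapped it after IL-4. Segments of 276 bp and 179 bp further into the gene had scores of 0.1 and 0.2 in the control. The only IL-4 transcript of Tlr2 was 224 bp long and began 828 bases after that start site. The transcripts on the gene's strand therefore covered 20.1% of Tlr2 in the control and 4.08% after IL-4.

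The annotation also gave the name Tlr2 to a 292-bp intergenic segment at 83863293 to 83863584, on the opposite strand and 21.5 kb upstream of the gene start. Its score was 0.2 in the control, and it was called in the control library only. Another upstream segment, 184 bp long and 79.5 kb from the gene start, also had a score of 0.2 in the control only. The annotation places it in an intron of another gene and in a SINE repeat. Designed primer pairs for enhancer RNA near Tlr2 are named for their distance from the gene. The pair named −21 kb is shown because that distance lies near that of the first segment. The position of these primers in the genome was not analysed here.
Tlr2 −21 kb forward primer: aagcaagagtttgtgtaccctctta
Tlr2 −21 kb reverse primer: cctgtcttccctctggtcac

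Tlr1 and Tlr6, whose products pair with TLR2, lie next to each other on the minus strand of chromosome 5. Tlr1 (ENSMUSG00000044827.10, 64924679 to 64933563) had 1 transcript in the control, 303 bp long with a score of 0.2, and none after IL-4. Of all 11054 names, 8.58% were likewise present in the control library only, and the Tlr1 value lay at the 13.5th percentile of control values. Tlr6 (ENSMUSG00000051498.6, 64952031 to 64960097) had a value of 0.6 in the control and 0.3 after IL-4, giving a centred log2 ratio of −0.62 with a rounding range of −1 to −0.27. No transcript lay on the strand of Tlr6 inside the gene in either library. Its values came from a segment on the opposite strand, 63 bp long in the control and 98 bp after IL-4, which began 0.917 and 0.884 kb upstream of the gene start.

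Tlr4, the lipopolysaccharide receptor, had the same highest score in both libraries. Tlr4 (ENSMUSG00000039005.13, chromosome 4, 66827584 to 66930284, plus strand) had a value of 0.2 in both libraries, a centred log2 ratio of 0.38 whose rounding range of −0.36 to 1.12 included 0. Its first segment began at 66827748 in both libraries and had a score of 0.2 in each. The control had 2 transcripts on the gene's strand and the IL-4 library 4, and coverage was 0.536% and 1.98% of this long gene. Its length of 102701 bp is that of the GENCODE entry, and coverage depends on that span. An IL-4 segment 13.3 kb into the gene lay in exon 3 of 3, the last RefSeq exon. The control segment 21.4 kb in and the IL-4 segment 20.9 kb in are annotated as intergenic, in a LINE repeat, but counted as inside the gene. By score times length and by mean score per base the centred log2 ratios were 1.27 and 1.29, which are past 2-fold in the higher direction.

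Among the endosomal receptors, Tlr7 and Tlr9 were at least 2-fold lower and Tlr8 was not. Tlr7 (ENSMUSG00000044583.13, chromosome X, 167304929 to 167330558, minus strand) reached 2.7 in the control and 0.5 after IL-4. The centred log2 ratio was −2.05, with a rounding range of −2.23 to −1.89. This value came from a segment beyond the annotated 3′ end of the gene, 69 bp long in the control and 212 bp after IL-4, with the same 5′ boundary at 167303702. When only transcripts overlapping Tlr7 on its own strand were used, the highest score was 0.7 in the control and 0.3 after IL-4, and the centred log2 ratio of −0.86 was less than 2-fold.

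Inside Tlr7 the libraries differed both in the number of segments and in their scores. There were 10 transcripts on the gene's strand in the control, with scores between 0.1 and 0.7, and 3 after IL-4, with scores between 0.1 and 0.3. Of the 10 control segments, 1 overlapped an IL-4 segment on the same strand, with scores of 0.7 and 0.2 and a centred log2 ratio of −1.43. Such a partner was present for 62.6% of all control transcripts. The segment nearest the gene start was called after IL-4, 0.459 kb into the gene with a score of 0.3, whereas the first control segment began 4.32 kb into the gene. Coverage of Tlr7 was 9.90% in the control and 3.34% after IL-4.

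Tlr8 lies beside Tlr7 on the same strand and had a different pattern. Tlr8 (ENSMUSG00000040522.5, chromosome X, 167242696 to 167264329, minus strand) had values of 0.5 in the control and 0.4 after IL-4, giving a centred log2 ratio of 0.06 whose rounding range of −0.27 to 0.38 included 0. The gene had 2 transcripts on its strand in the control and 5 after IL-4, and coverage was 1.52% and 9.18%. The highest score inside the gene was 0.5 in the control and 0.3 after IL-4, so the IL-4 library had more and lower segments. A further 5 transcripts carrying the name Tlr8 lay beyond the 3′ end of the gene after IL-4, with scores between 0.1 and 0.4, and none did in the control. No transcript on the gene's strand began within 1 kb of the start site of the Tlr8 promoter printed above in either library.

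The direction for Tlr8 depended on the measure. The centred log2 ratio was 2.82 for score times length summed over its named transcripts, 1.70 for the sum of scores, and −2.32 for the score of the transcript nearest the start site. No single direction was therefore given for this gene.

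Tlr9 (ENSMUSG00000045322.10, chromosome 9, 106222598 to 106226883, plus strand) had a value of 0.6 in the control and 0.2 after IL-4, giving a centred log2 ratio of −1.21 with a rounding range of −1.74 to −0.76. The range crossed 2-fold, and the sum of scores gave −0.83. Inside the gene each library had 1 transcript on its strand, in intron 1, and their 5′ ends lay 499 bases after the start site in the control and 483 bases after it following IL-4. The control segment was 712 bp long with a score of 0.6, and the IL-4 segment was 286 bp long with a score of 0.1. By these overlapping segments the centred log2 ratio was −2.21. The IL-4 value of 0.2 came instead from a 237-bp transcript on the opposite strand, beyond the 3′ end of the gene.

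**Figure D3:**
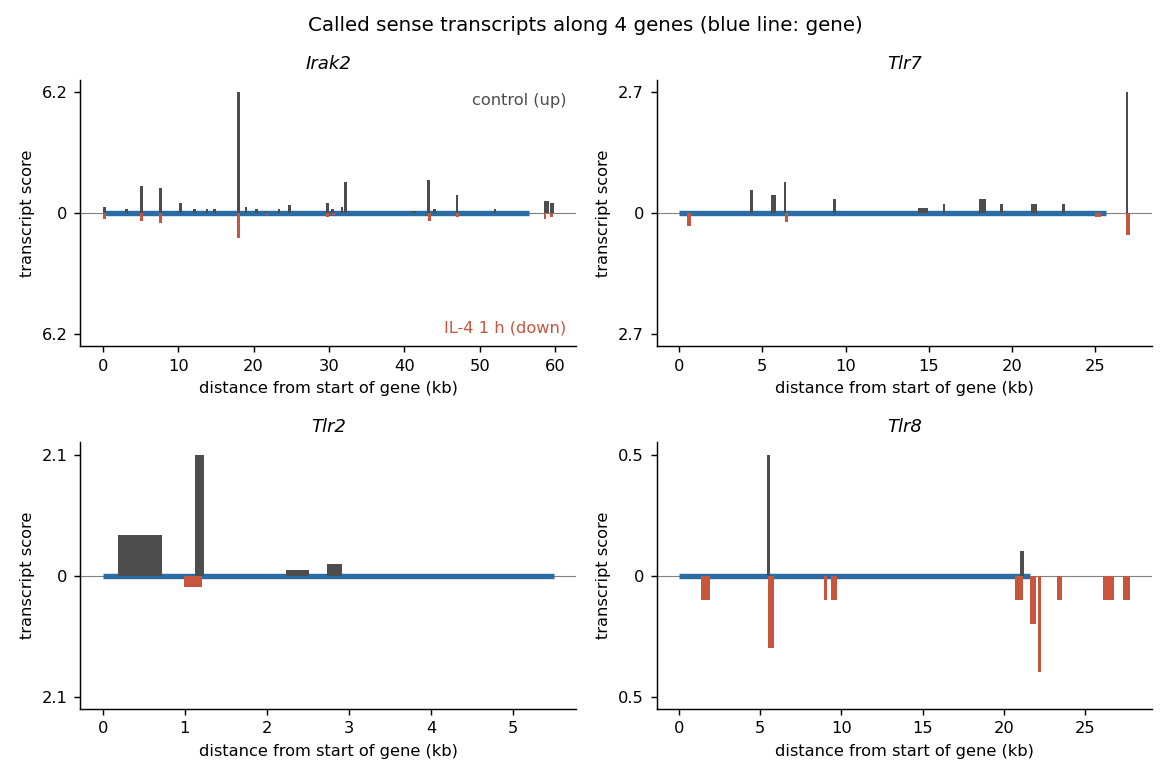
Called own-strand transcripts along Irak2, Tlr7, Tlr2 and Tlr8, placed by distance from the gene start in kb, with the score as bar height, upward for control and downward for IL-4, and a blue line for the gene. Irak2, Tlr7 and Tlr2 have tall control segments that are lower or missing after IL-4, and Tlr8 has more but low segments after IL-4.

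Irak2, a kinase of the MYD88 complex, had the highest value of the set and a large difference. Irak2 (ENSMUSG00000060477.14, chromosome 6, 113638467 to 113695026, plus strand) had a value of 6.2 in the control and 1.3 after IL-4. The centred log2 ratio was −1.88, with a rounding range of −1.94 to −1.81. Both values came from nearly the same segment in intron 2, at 113656433 to 113656513 in the control and 113656434 to 113656511 after IL-4.

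The segment at the start of Irak2 did not share this difference. It began 99 bases after the start site in the control and 68 bases after it following IL-4, with a score of 0.3 in both libraries. Further into the gene the scores were lower after IL-4 at most places where both libraries had a segment. A 54-bp segment in intron 1 had identical coordinates in both libraries, 113646104 to 113646157, and scores of 1.3 in the control and 0.5 after IL-4. A segment that began 5.02 kb into the gene had a score of 1.4 in the control and its IL-4 counterpart 0.4. Segments 43.2 kb and 46.9 kb into the gene had scores of 1.7 and 0.9 in the control, and 0.4 and 0.2 after IL-4.

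Of the 9 places in Irak2 where both libraries had a segment, 7 had a lower score after IL-4 and 2 had equal scores, with a median centred log2 ratio of −1. Over all such pairs in the libraries the centred median was 0.06, and before centring the median log2 ratio was −0.32. Irak2 had 23 transcripts on its strand in the control and 9 after IL-4, and coverage was 8.04% and 3.51%. Of the 23 control segments, 9 overlapped an IL-4 segment and 14 did not, among them a 57-bp segment with a score of 1.6. Over all 43122 control transcripts, 62.6% had an IL-4 partner on the same strand. All segments of the 3′ part of the gene carry the name Tatdn2 in the annotation, which assigns each segment to the nearest promoter, and they entered here by position.

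Myd88, the shared adaptor, had close highest scores in both libraries. Myd88 (ENSMUSG00000032508.8, chromosome 9, 119335934 to 119341411, minus strand) had values of 0.6 in the control and 0.5 after IL-4, giving a centred log2 ratio of 0.12 with a rounding range of −0.15 to 0.38. The exon 1 segment began 22 bases after the RefSeq start site of the printed promoter in the control and 2 bases after it following IL-4. Each library had 2 transcripts on the gene's strand, which covered 9.97% of the gene in the control and 11.5% after IL-4. In each library 1 of these carries the name Acaa1a and entered by position in the GENCODE gene. Its 5′ end lay at −982 bases from the RefSeq start site in the control and at −953 after IL-4. The direction depended on the measure, with a centred log2 ratio of −1 for the transcript nearest the start site and 0.87 for the sum of scores. A 124-bp transcript on the opposite strand near the promoter, with a score of 0.3, was called after IL-4 only. It was the IL-4 transcript nearest the start site, so the ratio of −1 did not compare segments on the gene's strand. The sum of scores also included it.

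Cd14, the coreceptor that hands lipopolysaccharide to TLR4, was lower but by less than 2-fold. Cd14 (ENSMUSG00000051439.7, chromosome 18, 36725067 to 36726798, minus strand) had values of 0.9 in the control and 0.5 after IL-4, giving a centred log2 ratio of −0.47 with a rounding range of −0.70 to −0.25. These values came from segments at the 3′ end of the gene. A second segment, in exon 2, had a score of 0.4 in the control and 0.1 after IL-4, giving a centred log2 ratio of −1.62. The transcripts on the gene's strand were 274 and 382 bp long in the control and 121, 204 and 778 bp long after IL-4, and they covered 30.5% and 59.2% of the gene. By mean score per base the centred log2 ratio was −1.38, which is past 2-fold.

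On a per-length scale, the mean score per base over the whole gene was highest for Cd14 in both libraries, at 0.165 in the control and 0.0691 after IL-4. In the control the next levels were 0.123 for Tlr2, 0.0997 for Tlr9, 0.0478 for Myd88, 0.0390 for Irak2 and 0.0245 for Tlr7, and Tlr1, Tlr8 and Tlr4 had 0.00682 or less. After IL-4 Myd88 was next with 0.0461. It was followed by Tlr8 with 0.0124, Irak2 with 0.00984, Tlr2 with 0.00815, Tlr9 with 0.00667, Tlr7 with 0.00637 and Tlr4 with 0.00286. Tlr2 and Tlr9 thus stood above Myd88 in the control and below it after IL-4. The level of Tlr4 was taken over its 102701-bp GENCODE span, which takes in segments annotated as intergenic, so its place in these orders depends on that span. Neighbours in these orders cannot be separated by error, since no replicate gives a spread.

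The number of transcripts on the gene's own strand also differed between members. Of the 9 members with such a transcript, 4 had fewer after IL-4 (Tlr1, Tlr2, Tlr7 and Irak2), 3 had more (Tlr4, Tlr8 and Cd14) and 2 had the same number (Tlr9 and Myd88). Together they had 47 in the control and 28 after IL-4. Over the 10644 genes with a transcript on their strand, 28.5% had fewer after IL-4 and 39.9% had more, and the total went from 39937 to 47580. With a score minimum of 0.3 for counting, no member had more after IL-4. All genes were not counted at this minimum, and the median transcript score was 0.3 in the control and 0.2 after IL-4. This count is therefore no result about the members.

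**Figure D4:**
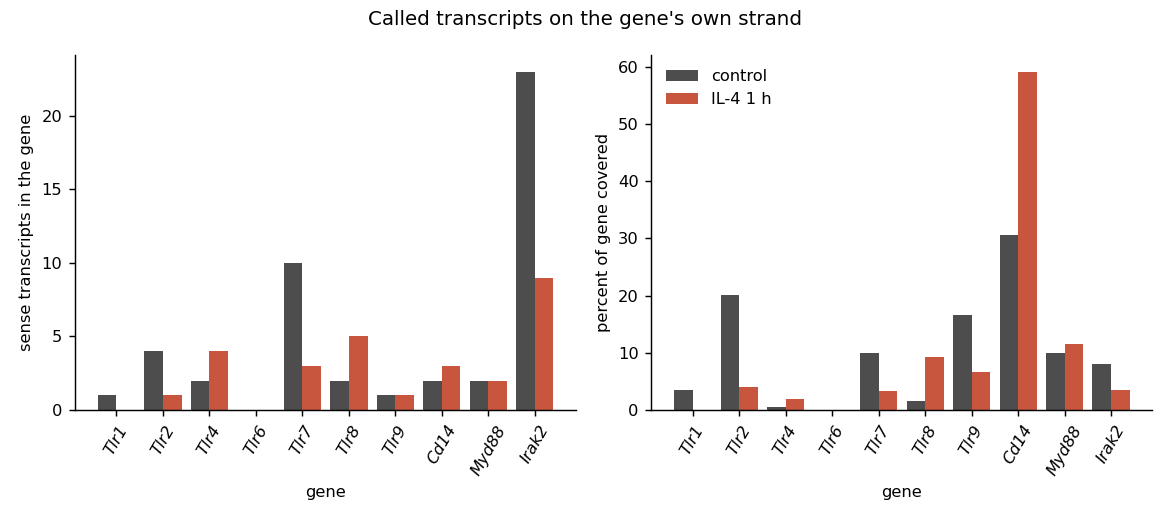
Number of transcripts on the gene's own strand and the percent of the gene they cover, for each member in both libraries. Irak2 goes from 23 to 9 transcripts and Tlr7 from 10 to 3, while Tlr8 goes from 2 to 5 and Cd14 from 30.5% to 59.2% coverage.

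Segments on the same strand that overlapped between libraries gave a comparison place by place. The members held 20 such pairs, in the genes or next to them, of which 15 had a lower printed score after IL-4, 5 had equal scores and none had a higher score. Before centring, the median log2 ratio over all control transcripts with an IL-4 partner was −0.32. Lower printed scores were therefore not particular to the members. After centring, 10 pairs were at least 2-fold lower and the median was −0.97. Over all 26995 control transcripts with an IL-4 partner the centred median was 0.06, with 9.11% at least 2-fold lower, and 2974 of them were at least 2-fold higher. Several of the highest member segments were short, so the 1035 control transcripts of at most 120 bp with a score of at least 1 and an IL-4 partner were set beside them. Their median was −0.43 and 21.2% were at least 2-fold lower. For longer transcripts with such scores the median was −0.27 and 18.5% were at least 2-fold lower. The pairs of a gene share its transcription and are not independent, and 9 of the 20 belong to Irak2.

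The other genes of the pathway were read from a list of 53 names, which holds receptors, chaperones, adaptors, kinases, ubiquitin ligases and inhibitors. Values in both libraries were present for 37 of them, with 17 below and 20 above the median gene and a median centred log2 ratio of 0.06. Of the 37, 3 were at least 2-fold lower and none was at least 2-fold higher, beside 8.62% and 8.06% of all genes, so the lower count was near that of all genes and is no result about the list. Cd180, an inhibitory relative of TLR4, had a value of 5.1 in the control and 0.8 after IL-4, giving a centred log2 ratio of −2.29 with a rounding range of −2.40 to −2.19. Its own-strand transcripts went from 16 to 2. Peli2, a ubiquitin ligase that acts on IRAK proteins, had 1.4 in the control and 0.4 after IL-4, a ratio of −1.43 with a range of −1.67 to −1.21. Ube2v1, a partner of the ubiquitin-conjugating enzyme UBE2N, had 1.6 and 0.6, a ratio of −1.04 whose range of −1.21 to −0.88 crossed 2-fold. Its highest own-strand scores were 0.5 in the control and 0.3 after IL-4, with 4 and 7 own-strand transcripts, so its values came from transcripts that carry the name but do not overlap the gene on its strand.

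Transport and signalling partners of the receptors gave ratios short of 2-fold. Unc93b1, which carries the nucleic acid-sensing receptors to endosomes, had a value of 6.2 in the control and 2.4 after IL-4, giving a centred log2 ratio of −0.99 that lay at the edge of 2-fold. Ly96, the protein that binds lipopolysaccharide with TLR4, had 0.1 in both libraries, and its rounding range of −1.21 to 1.96 gives no direction. Tirap, the adaptor that brings MYD88 to TLR2 and TLR4, had 0.2 in the control and 0.3 after IL-4, a ratio of 0.96 with a range of 0.38 to 1.60.

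Names present in 1 library gave no ratio. Cd36, Irak3, Irak1bp1 and Peli3 were named in the control only, with values of 0.4, 0.1, 0.2 and 0.3. Irak3, an inhibitory kinase of the family, had 3 transcripts on its strand in the control and none after IL-4. Cd36, a scavenger receptor that assists TLR2, did have own-strand transcripts in each library whatever their assigned name, with a highest score of 0.9 in both. Tnip3, an inhibitor of NF-kB signalling, was named after IL-4 only, with a value of 0.5, and had 10 own-strand transcripts there and none in the control. Of the list, 11 names were present in neither library.

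**Figure D5:**
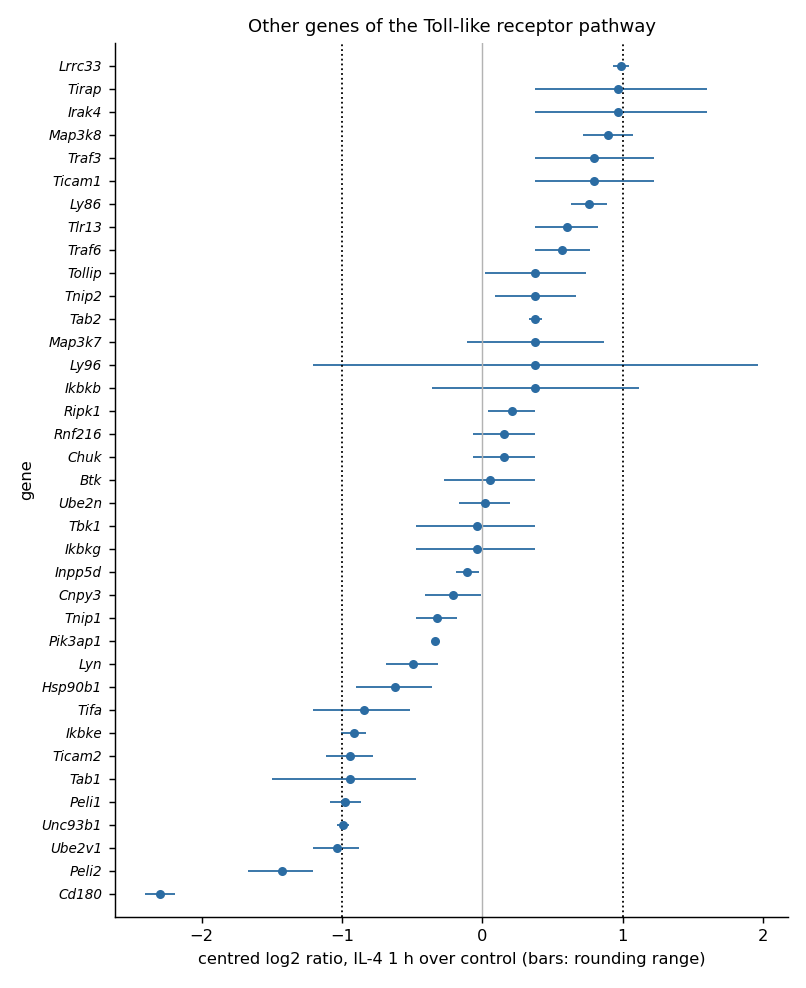
Centred log2 ratios of the pathway genes with a value in both libraries, with bars for the rounding range and dotted lines at 2-fold. Cd180 and Peli2 lie wholly past the lower line, the point of Ube2v1 lies just past it with a bar that crosses it, and no point lies past the upper line.

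The libraries were checked for the IL-4 response and for cell identity. Of 16 known IL-4 target genes, 7 had a value in both libraries and 7 more after IL-4 only. Of all 11054 names, 1227 were likewise present after IL-4 only, and not every such target had an own-strand transcript. Of the 7 with both values, 3 were at least 2-fold higher and none at least 2-fold lower, beside 8.06% and 8.62% of all genes. Socs1, a feedback inhibitor of cytokine signalling, had 0.3 in the control and 2.5 after IL-4, and Mrc1, the mannose receptor, had 2.7 and 13.1. All 14 macrophage markers had an own-strand transcript in both libraries, and their highest scores summed to 25.9 in the control and 21.3 after IL-4. Of 10 neutrophil markers 3 had one in the control and 4 after IL-4, with sums of 1.9 and 1.2 and none for Ly6g or Elane. Of 8 B cell markers only Blnk had one, with 1.9 and 0.7, and markers of T cells, dendritic cells, mast cells, fibroblasts and erythroid cells had none. Fewer cells of a type and less nascent RNA per cell cannot be told apart in these bulk libraries. The libraries also differed in how transcripts were cut, with a median length of 227 bp in the control and 312 bp after IL-4 and median scores of 0.3 and 0.2, and the part of this in the member values was not tested.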

How the data were processed

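GRO-seq was performed on nuclei of control and IL-4-treated BMDMs, with 1 library per group made from about 100 ng of nascent RNA. The authors aligned reads to mm10 with BWA and called and annotated transcripts in each library with HOMER. The submitters' processing notes list BWA 0.7.10, SAMtools 0.1.19 and HOMER 4.2. The deposited files hold 1 score per transcript, printed to 1 decimal. Scaling to library size is not given in the sources used here, and the depth is unknown. No deposited column belonged to another sample.

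Groups were taken from the treatment labels. A gene's value, the centring and the 2-fold limit are given in the report. Own-strand transcripts overlapped the GENCODE M21 (GRCm38) gene by at least 1 bp. Segments up to 5 kb from a gene were also read. Scripts used Python 3.11.15, pandas 2.3.3, numpy 2.4.6 and matplotlib 3.10.9, and were tested on simulated data. Named were all members, pathway genes past 2-fold over the whole rounding range or present in 1 library, Ly96, Unc93b1, Tirap, 4 response genes and 2 IL-4 targets. Ube2v1, Ly86 and the response genes Ier3 and Cd40 were added after their values were seen. Chil3 and Nrros were read under the older names Chi3l3 and Lrrc33. Alternatives were other summaries of a gene's transcripts, no repeats, no centring, missing values set to the lowest score and a 1.5-fold limit. The members and gene lists were chosen with earlier results of these data known.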

Additional observations from a re-analysis of the deposited data

How the results depend on the processing

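Scores were summed, multiplied by length and summed, taken nearest the start site, taken from own-strand overlaps as the highest or as the mean per base, or read without repeats, without centring, with missing values at the lowest score, or at 1.5-fold. The 4 members lower in the report became 3 to 6. The 6 came nearest the start site, where 2460 of all 8878 genes were also at least 2-fold lower. Without centring 5 members were lower, beside 2161 of all 8879 genes. Tlr2 was at least 2-fold lower under all 8 alternatives that gave it a ratio. Tlr7 was under 2-fold lower nearest the start (−0.74) and by own-strand overlap (−0.86), and Irak2 was at 0 nearest the start, where Myd88 and Tlr6 were at −1. Both ratios of −1 drew on opposite-strand transcripts. No member at least 2-fold lower in the report turned higher, but Tlr8 ranged from −2.32 to 2.82. In that order of settings, members higher (0 in the report) were 1 by sum (Tlr8), 2 by score times length and 2 per base (Tlr4 and Tlr8 in both). Pathway genes lower (3) were 5 by sum, 6 by score times length, 9 nearest the start, 6 by own-strand highest, 8 per base, 6 without repeats, 10 without centring, 5 with missing values filled and 10 at 1.5-fold. Pathway genes higher (0) were 4, 5, 5, 1 and 6 for the first 5 settings, 1 without repeats, 1 with missing values filled and 8 at 1.5-fold. All genes lower (765) were 1219 by sum, 1500 by score times length, 2460 nearest the start, 1369 per base, 2161 without centring, 1151 with missing values filled, 342 over the rounding range and 2164 at 1.5-fold. All genes higher (716) were 1208 by sum, 1529 by score times length, 1354 per base, 1461 with missing values filled, 326 over the rounding range and 1793 at 1.5-fold. The 3 members with more own-strand transcripts after IL-4 became 0 at a score of at least 0.3, a minimum at which all genes were not counted. The causes were not tested. No paired analysis was possible because each group has 1 library, and none could be left out.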

Other observations

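Genes that Toll-like receptor signalling induces were read from a list of 26 names. Values in both libraries were present for 13, with a median centred log2 ratio of −0.12, and 12 names were in neither library. Of the 13, Nfkbiz, a nuclear cofactor of NF-kB, was at least 2-fold lower, with 1.5 in the control and 0.4 after IL-4. Ier3, an early stress response gene, had 0.8 and 3.1, and Cd40, a costimulatory receptor, had 0.5 and 1.5, and both were at least 2-fold higher. Among all genes with a value in both libraries, 8.62% were at least 2-fold lower and 8.06% at least 2-fold higher. Ier3 and Cd40 were named after their values were seen. The chemokine Ccl3 had 1.8 and 1.0, the NF-kB inhibitor Nfkbia 1.7 and 1.2, and the cytokine Il1b 1.3 and 1.0, a centred log2 ratio of 0. The values of Il1b and Ccl3 came from transcripts that carry the name without overlapping the gene on its strand, since Il1b had no own-strand transcript in either library and Ccl3 had none in the control and 1 after IL-4, with a score of 0.1.

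Cd180 and Ly86, which encode the subunits of a surface complex related to TLR4, had opposite counts of own-strand transcripts, from 16 to 2 for Cd180 and from 23 to 59 for Ly86. Their values went from 5.1 to 0.8 and from 1.0 to 1.3. Ly86 was singled out after its value was seen, and the difference between these genes was not tested.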
